A study of Mus musculus with 3 samples.

Results

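TCR β chains of CD4 and CD8 T cells were compared in the spleen of a single male MRL.lpr mouse at 16 weeks of age. The comparison covered the in-frame TRB clonotypes of the CD4 library and of the CD8 library, meaning distinct CDR3 nucleotide sequences with a TRBV gene, a TRBJ gene and an amino acid translation free of stop codons and frameshifts. They numbered 41301 in CD4 T cells and 77240 in CD8 T cells, 118541 of the 168230 clonotypes listed for the whole study. MRL.lpr is a lupus-prone strain in which the lpr mutation disables the death receptor Fas, and the labels name no agent given to the animal. Another library, of the double-negative (DN) T cells that lack both coreceptors and accumulate in this strain, came from the same spleen and was used here only to look up clonotypes. Each subset was represented by 1 library, each made from the same number of sorted cells, so that subset, sort and library cannot be told apart, and no difference below has a replicate check. The files hold only TCR sequences, and the CD4 and CD8 labels could therefore not be checked against markers.

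A TCR β chain is assembled in the thymus by joining a V, a D and a J gene, with bases trimmed and added at the joints. The joint encodes CDR3, the loop that lies over the peptide, whereas CDR1 and CDR2, which mostly touch the MHC molecule, are encoded by the V gene alone. CD4 T cells are selected on MHC class II and CD8 T cells on MHC class I. Some V regions are also recognised by superantigens of endogenous mouse mammary tumour viruses, which are presented by class II molecules and remove the T cells that bind them in strains that carry both.

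The clonotypes with the most reads show what the values below are made of, and are printed as the deposited CDR3 from the codon of the first cysteine to the codon of the last phenylalanine, 5′ to 3′. Capitals mark the bases left between the start that clonotypes of the V gene shared and the end that those of the J gene shared, where D bases, added bases and trimming lie.
CD4, TRBV13-2 with TRBJ2-5: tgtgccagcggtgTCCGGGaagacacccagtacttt
CD4, TRBV13-2 with TRBJ2-1: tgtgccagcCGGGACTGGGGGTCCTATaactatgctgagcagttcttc
CD4, TRBV13-3 with TRBJ2-3: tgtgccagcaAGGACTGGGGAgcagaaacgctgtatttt
CD8, TRBV13-1 with TRBJ1-3: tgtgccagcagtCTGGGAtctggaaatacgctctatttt
CD8, TRBV17 with TRBJ2-3: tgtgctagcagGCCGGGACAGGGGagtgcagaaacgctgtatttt
CD8, TRBV1 with TRBJ2-4: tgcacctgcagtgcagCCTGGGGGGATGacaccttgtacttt

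The first 3 were the largest clonotypes of CD4 T cells. The TRBV13-2 and TRBJ2-5 clonotype had 1484 reads in the CD4 library, 21 in the CD8 library and 3 in the DN library. The TRBV13-2 and TRBJ2-1 clonotype had 1275, 5 and 7 reads in the same order, and the TRBV13-3 and TRBJ2-3 clonotype had 575, 8 and 3. Each was thus almost entirely a CD4 clonotype. The largest CD8 clonotype, of TRBV13-1 and TRBJ1-3, had 3260 reads in the CD8 library, 54 in the CD4 library and 75 in the DN library. The TRBV17 and TRBJ2-3 clonotype had 637, 3 and 2 reads in CD8, CD4 and DN, and the TRBV1 and TRBJ2-4 clonotype had 593, 12 and 5. The largest clonotype made up 1.17% of CD4 reads (95% Wilson interval 1.11 to 1.23) and 2.24% of CD8 reads (2.17 to 2.32). None of the 10 largest clonotypes of one library was among the 10 largest of the other, and these 10 held 4.43% of the in-frame reads in CD4 and 4.32% in CD8.

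The in-frame clonotypes rested on 126738 reads in CD4 and 145225 in CD8. Of them, 60.9% in CD4 and 68.2% in CD8 had a single read. A count of 3 reads, the floor used here for a clonotype at 0, was 0.00237% of the CD4 reads and 0.00207% of the CD8 reads. Reads are PCR copies counted without molecular identifiers, so all intervals cover counting error only. Shares were therefore taken over clonotypes, each counted once, and then over reads, with the clonotype as the unit of error.

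CD4 and CD8 T cells differed in V gene use far more than in J gene use. A V gene was counted as different where its share of clonotypes differed by at least 1.5-fold, with all 21 V genes that had at least 100 in-frame clonotypes in the 2 libraries together being compared. There were 5 that were higher in CD4 T cells (23.8% of the V genes compared) and 7 were higher in CD8 T cells (33.3%). The first 5 genes together held 38.3% of CD4 clonotypes against 14.99% of CD8 clonotypes, a ratio of 2.55 (95% interval 2.50 to 2.61). The 7 others held 18.6% against 43.8%, which is 2.36-fold more in CD8 (2.31 to 2.41).

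The V genes favoured in CD4 T cells were TRBV2, TRBV20, TRBV26, TRBV4 and TRBV5, which RefSeq lists under the older names Vβ4, Vβ15, Vβ3, Vβ10 and Vβ1. TRBV2 was used by 4.24% of CD4 clonotypes and 0.996% of CD8 clonotypes, a ratio of 4.26 (3.92 to 4.64). TRBV20 was used by 9.80% and 2.97%, a ratio of 3.30 (3.14 to 3.46). TRBV26 was used by 4.995% and 2.09%, a ratio of 2.39 (2.24 to 2.55). The excess was smaller for the other two genes of the group. TRBV4 was used by 8.22% and 3.67%, a ratio of 2.24 (2.13 to 2.35). TRBV5 was used by 11.02% and 5.27%, a ratio of 2.09 (2.01 to 2.18). Counted by reads, the ratios were 4.35, 3.61, 2.22, 2.53 and 2.04 in the same order of genes.

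The V genes favoured in CD8 T cells were led by TRBV16 (Vβ11), with 51 clonotypes in CD4 and 889 in CD8. These were 0.123% and 1.15% of the clonotypes, 9.32-fold more in CD8 (7.03 to 12.4). TRBV14 (Vβ13) was used by 1.28% of CD4 clonotypes and 6.55% of CD8 clonotypes, 5.11-fold more in CD8 (4.68 to 5.58). TRBV12-1 (Vβ5.2) was rare in both, with 14 clonotypes in CD4 and 103 in CD8, 3.93-fold more in CD8 (2.25 to 6.87). With out-of-frame and stop-containing clonotypes counted as well, the CD4/CD8 ratio of TRBV12-1 was 0.793, no longer past 1.5-fold, and that of TRBV16 was 0.316. The remaining genes were common in both subsets. TRBV13-3 (Vβ8.1) was the most used V gene of CD8 T cells, with 14.9% of their clonotypes against 5.48% in CD4, 2.71-fold more (2.60 to 2.83). TRBV17 (Vβ9) was at 3.29% in CD4 and 6.51% in CD8, 1.98-fold more in CD8 (1.87 to 2.10). TRBV29 (Vβ7) was at 1.66% and 3.09%, 1.86-fold more in CD8 (1.71 to 2.02), and TRBV1 (Vβ2) was at 6.68% and 11.5%, 1.72-fold more (1.65 to 1.79). By reads, the differences ran from 1.64-fold for TRBV1 to 12.5-fold for TRBV16.

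**Figure D1:**
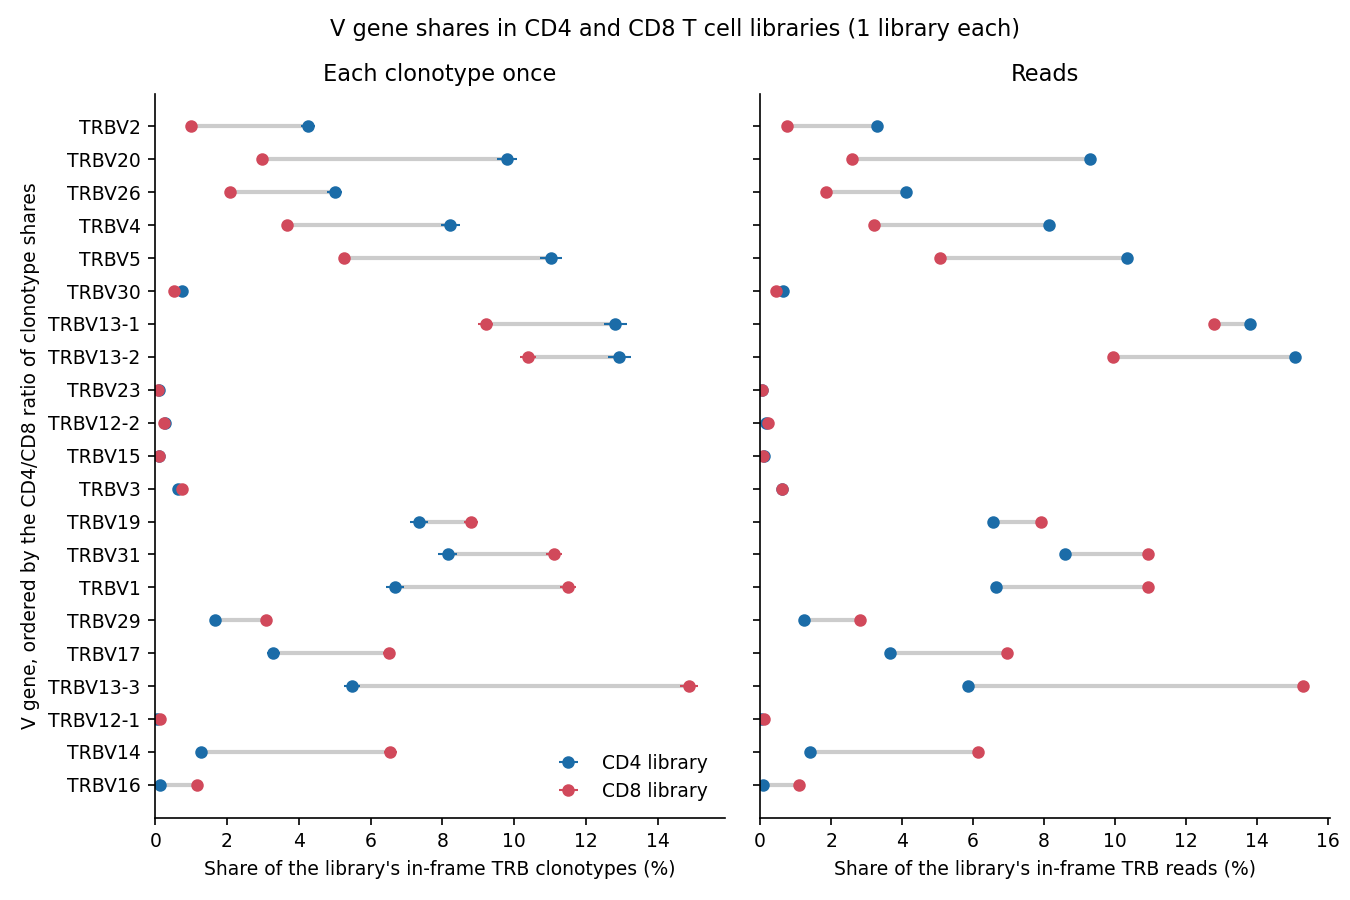
Share (%) of in-frame TRB clonotypes (left, each counted once, bars are 95% Wilson intervals) and of in-frame TRB reads (right) that used each of 21 V genes in the CD4 library (blue) and the CD8 library (red), 1 library each. The genes are ordered by the CD4/CD8 ratio of clonotype shares, from TRBV2 at 4.26 at the top to TRBV16 at 0.107 at the bottom, and both panels show the same order of subsets for the 12 genes past 1.5-fold.

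The 3 genes of the Vβ8 family went different ways. TRBV13-1 (Vβ8.3) was at 12.8% in CD4 and 9.21% in CD8, and TRBV13-2 (Vβ8.2) at 12.9% and 10.4%, CD4/CD8 ratios of 1.39 (1.35 to 1.44) and 1.245 (1.205 to 1.286), whereas TRBV13-3 was lower in CD4. The family as a whole was at 31.2% in CD4 and 34.5% in CD8, which hides this split. By reads, TRBV13-2 reached a ratio of 1.52 (1.24 to 1.85) and TRBV13-1 only 1.08 (0.786 to 1.48). The read share of TRBV13-1 was 13.8% in CD4 and 12.8% in CD8. Without its largest clonotype in each library, which in CD8 was the one printed above, it was 13.6% and 10.8%.

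The family members recognised by superantigens in many strains, Vβ5, Vβ11 and Vβ12, were scarce in both subsets and did not act as a block. TRBV12-1, TRBV12-2, TRBV16 and TRBV15 together held 0.508% of CD4 clonotypes and 1.61% of CD8 clonotypes, 3.17-fold more in CD8 (2.74 to 3.67). This sum followed TRBV16 and TRBV12-1. TRBV12-2 (Vβ5.1), with 107 and 182 clonotypes, had a CD4/CD8 ratio of 1.10 (0.866 to 1.40), and TRBV15 (Vβ12), with 38 and 72, a ratio of 0.987 (0.666 to 1.46). Of the other V genes compared, TRBV30 (ratio 1.45), TRBV23 (1.15), TRBV3 (0.853), TRBV19 (0.835) and TRBV31 (0.733) stayed within 1.5-fold, although only the interval of TRBV23, 0.776 to 1.71, held 1.

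Out-of-frame clonotypes carry the same V genes but encode no receptor. They were read from mRNA here, and how often a V gene was rearranged without selection of the protein was not measured. CD4 T cells had 3308 and CD8 T cells 3704. For all 12 V genes past 1.5-fold in frame, the out-of-frame ratio lay nearer to 1 as a point value. These genes were picked for in-frame ratios far from 1, which by itself favours such an outcome. For TRBV1, TRBV17, TRBV20, TRBV26 and TRBV29, the out-of-frame interval held the in-frame ratio. TRBV16 was at 3.66% of out-of-frame clonotypes in CD4 and 3.75% in CD8, a ratio of 0.975 (0.767 to 1.24) against 0.107 in frame. TRBV12-1 had a ratio of 1.34 (0.886 to 2.04) against 0.254 in frame, and TRBV4 a ratio of 1.12 (0.963 to 1.31) against 2.24. The out-of-frame intervals of these 3 genes held 1, while their in-frame intervals did not. That of TRBV12-1 out of frame rested on 48 clonotypes in CD4 and 40 in CD8 and reached past 1.5-fold. In 7 of the 12 genes, the out-of-frame ratio was still past 1.5-fold in the same direction. Among them were TRBV20 with 2.59 (1.85 to 3.62), TRBV2 with 2.07 (1.49 to 2.88), TRBV26 with 2.06 (1.39 to 3.05) and TRBV14 with 0.548 (0.413 to 0.727).

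Some out-of-frame clonotypes stood 1 inserted or deleted base from an in-frame clonotype of the same library, V gene and J gene, 889 in CD4 and 1107 in CD8. Without them, genes past 1.5-fold in the same direction numbered 5, and the ratios of TRBV20, TRBV2 and TRBV14 moved to 1.495 (0.923 to 2.42), 1.55 (1.08 to 2.21) and 0.805 (0.579 to 1.12). With at least 2 reads asked of an out-of-frame clonotype, which left 831 and 644, they numbered 2. TRBV1 had a like ratio in both frames before these filters, 0.581 in frame and 0.591 out of frame (0.488 to 0.714). Without the clonotypes 1 inserted or deleted base from an in-frame one, its out-of-frame ratio was 0.631. With at least 2 reads, which left 28 TRBV1 clonotypes in CD4 and 30 in CD8, it was 0.723 (0.437 to 1.198), an interval that holds 1.

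**Figure D2:**
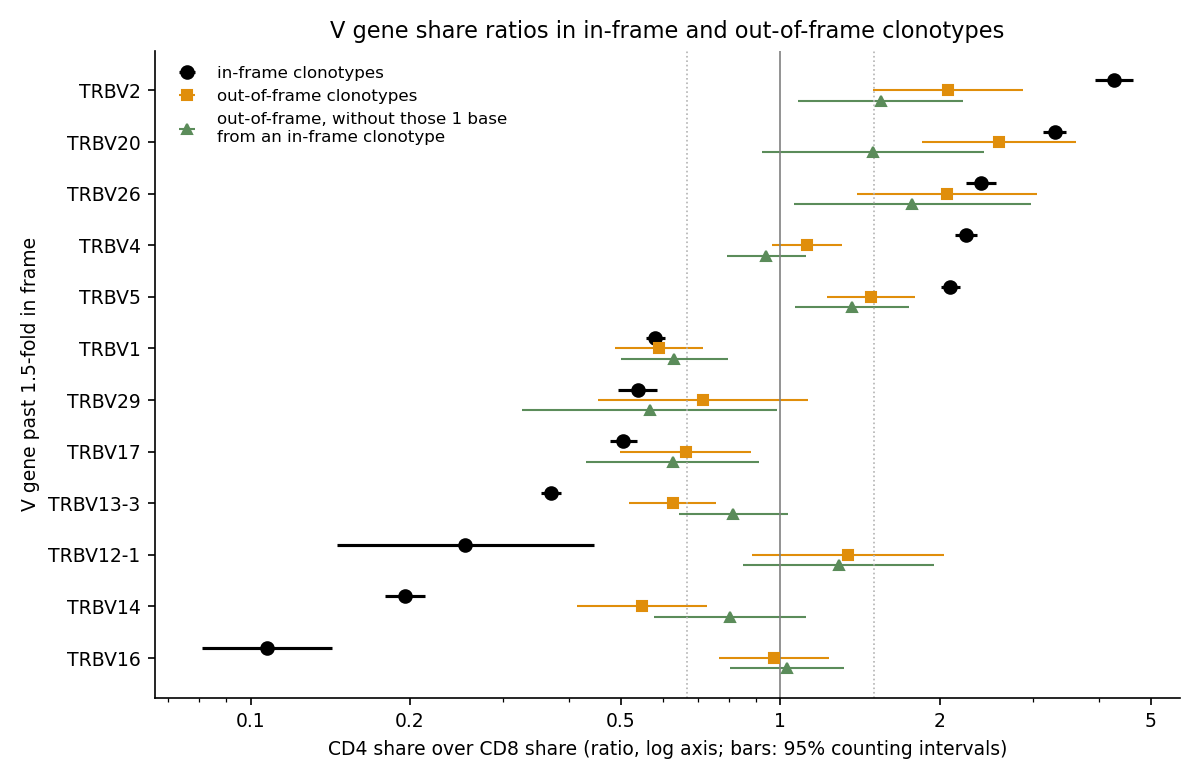
CD4 share over CD8 share (log axis) of the 12 V genes past 1.5-fold, among in-frame clonotypes (black), out-of-frame clonotypes (orange) and out-of-frame clonotypes without those 1 inserted or deleted base from an in-frame clonotype (green), with 95% counting intervals and dotted lines at 1.5-fold. The in-frame points spread from 0.107 to 4.26, and the out-of-frame points of TRBV16, TRBV12-1 and TRBV4 lie at 0.975, 1.34 and 1.12.

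The same counts can also be given as the in-frame share of a V gene's own clonotypes (in-frame over in-frame plus out-of-frame). Over all V genes, in-frame clonotypes were 92.2% of TRB clonotypes in CD4 and 95.1% in CD8, with stop-containing ones in the total. CD4 was thus lower in the pooled clonotypes, but not in every gene. By the in-frame share, TRBV2 was at 94.6% in CD4 and 93.4% in CD8, and TRBV4 at 91.95% and 90.5%. For TRBV16, this share was 29.7% in CD4 (51 of 172, Wilson interval 23.3 to 36.9) and 86.5% in CD8 (889 of 1028, 84.3 to 88.4). For TRBV12-1 it was 22.6% (14.0 to 34.4) and 72.0% (64.2 to 78.7), and for TRBV15 it was 21.5% (16.1 to 28.1) and 39.8% (32.9 to 47.1). TRBV15 therefore had the same in-frame share of the repertoire in both subsets but fewer in-frame clonotypes relative to its out-of-frame ones in CD4. TRBV14 was at 88.3% (85.5 to 90.6) and 97.2% (96.8 to 97.7). For the genes favoured in CD4 the 2 subsets were close, as with TRBV20 at 97.3% and 98.0%.

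J genes differed little. No J gene of 12 was past 1.5-fold in either direction by clonotypes (0.0% of J genes) or by reads, and the CD4/CD8 ratios ran from 0.820 to 1.29. The J genes form a TRBJ1 and a TRBJ2 cluster in the locus. All 6 TRBJ1 genes had a ratio above 1, from 1.04 (0.974 to 1.10) for TRBJ1-6 to 1.27 (1.21 to 1.33) for TRBJ1-3 and 1.29 (1.22 to 1.35) for TRBJ1-2. The TRBJ1 cluster was used by 36.6% of CD4 and 30.7% of CD8 clonotypes, a ratio of 1.19 (1.17 to 1.21). TRBJ2-7, the most used J gene of both, was used by 7112 CD4 and 16222 CD8 clonotypes, a ratio of 0.820 (0.7995 to 0.841), and TRBJ2-1 and TRBJ2-5 were at 0.895 and 0.894. TRBJ2-2, TRBJ2-3 and TRBJ2-4 were at 1.03, 1.07 and 1.01.

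Counted by reads, the ratio of the TRBJ1 cluster was 1.09 (0.971 to 1.23), an interval that holds 1. TRBJ1-3 turned from 1.27 by clonotypes to 0.808 by reads (0.435 to 1.498). Its read share in CD8 was 6.79%, and 4.64% without its largest clonotype, which was the CD8 clonotype of TRBV13-1 printed above. Among out-of-frame clonotypes, the ratio was 0.832 (0.762 to 0.909) for TRBJ2-7 and 1.27 (1.01 to 1.58) for TRBJ1-3, close to their in-frame ratios by clonotypes, while TRBJ1-2 was at 1.05 (0.858 to 1.28).

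D gene use differed slightly between the subsets. TRBD2 lies between the 2 J clusters and normally joins TRBJ2. Among clonotypes with a TRBJ2 gene, TRBD2 was listed for 42.3% in CD4 (41.7 to 42.9) and 44.0% in CD8 (43.6 to 44.4), and TRBD1 for 35.2% (34.6 to 35.8) and 33.7% (33.3 to 34.1). No D gene was listed for 22.6% and 22.3% of these clonotypes. Clonotypes of both J clusters were also compared within groups matched for V gene, J gene and CDR3 length. There, the share with TRBD2 listed differed by -1.246 percentage points, CD4 minus CD8 (-1.752 to -0.739). The share with no D gene listed differed by -0.967 (-1.483 to -0.450) in the same groups. Among clonotypes with a TRBJ1 gene, TRBD1 was listed for 61.2% in CD4 (60.4 to 62.0) and 59.8% in CD8 (59.2 to 60.4), and TRBD2 for 5.45% (5.09 to 5.82) and 5.08% (4.81 to 5.37).

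V-J pairs mostly followed their V genes. Of the 172 pairs with at least 100 clonotypes, which held 98.2% of CD4 and 98.1% of CD8 clonotypes, 65 were past 1.5-fold higher in CD4 (37.8%) and 60 were higher in CD8 (34.9%). By reads, these counts were 67 (39.0%) and 60 (34.9%), and 111 pairs were past 1.5-fold in the same direction by both measures. All 10 TRBV2 pairs, 12 TRBV20 pairs, 11 TRBV26 pairs, 12 TRBV4 pairs and 12 TRBV5 pairs were higher in CD4. All 12 TRBV13-3 pairs, 12 TRBV14 pairs and 4 TRBV16 pairs were higher in CD8, whichever J gene they held. Among the other V genes favoured in CD8, 10 of 12 TRBV1 pairs, 9 of 10 TRBV17 pairs and 7 of 11 TRBV29 pairs were past 1.5-fold in that direction, and the TRBV29 ratios spread from 0.284 to 0.975. TRBV13-1 and TRBV13-2, within 1.5-fold as genes, had 5 and 2 of 12 pairs that were past it in CD4. TRBV19, also within 1.5-fold, had 3 of 12 pairs past it in CD8, and its pair ratios ran from 0.556 to 1.44. In CD8, 2 of 12 TRBV31 pairs and 1 of 3 TRBV3 pairs were past 1.5-fold, and in CD4 1 of 3 TRBV30 pairs.

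The pair with the highest CD4/CD8 ratio was TRBV2 with TRBJ1-2, used by 157 CD4 and 35 CD8 clonotypes, a ratio of 8.39 (5.82 to 12.1). It was followed by TRBV2 with TRBJ1-3 (5.61), TRBV2 with TRBJ2-3 (5.30), TRBV20 with TRBJ1-4 (5.21) and TRBV20 with TRBJ2-2 (4.97). The pair with the lowest ratio was TRBV16 with TRBJ2-7, used by 3 CD4 and 145 CD8 clonotypes, a ratio of 0.0387 (0.0123 to 0.121). It was followed by TRBV14 with TRBJ2-4 (18 and 344 clonotypes, 0.0979), TRBV16 with TRBJ2-5 (0.122), TRBV16 with TRBJ1-1 (0.125) and TRBV14 with TRBJ1-4 (0.130). The largest CD4 clonotype of the highest pair and the largest CD8 clonotype of the lowest pair are shown with the same use of capitals.
TRBV2 with TRBJ1-2: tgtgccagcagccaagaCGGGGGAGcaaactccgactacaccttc
TRBV16 with TRBJ2-7: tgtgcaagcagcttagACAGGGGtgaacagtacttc

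Both had few reads beside the largest clonotypes of their libraries. The TRBV2 clonotype had 30 CD4 reads and was at 0 in both other libraries, and a count of 0 allows a share of up to 0.00207% of the CD8 reads and 0.00162% of the DN reads. The TRBV16 clonotype had 7 reads in CD8, 1 in DN and 0 in CD4, which allows up to 0.00237% of the CD4 reads. The 157 CD4 clonotypes of the first pair held 331 reads in all, and the 145 CD8 clonotypes of the second held 243.

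To see whether pairs held more than their V and J genes, the ratio of each pair was divided by the product of its V gene ratio and J gene ratio. This quotient ran from 0.440 to 1.79 over the 172 pairs, was past 1.5-fold in 11, and had an interval free of 1 in 44 (25.6% of the pairs), 24 above and 20 below. TRBV4 with TRBJ1-1 was the highest, with 345 CD4 and 139 CD8 clonotypes, a pair ratio of 4.64 against a product of 2.59 and a quotient of 1.79 (1.47 to 2.18). TRBV14 with TRBJ2-5 had a quotient of 1.59 (1.33 to 1.89), while TRBV14 with TRBJ2-4 had 0.493 (0.307 to 0.791). TRBV20 with TRBJ1-2 had 0.584 (0.495 to 0.688). The intervals leave out the error of the V and J gene ratios.

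**Figure D3:**
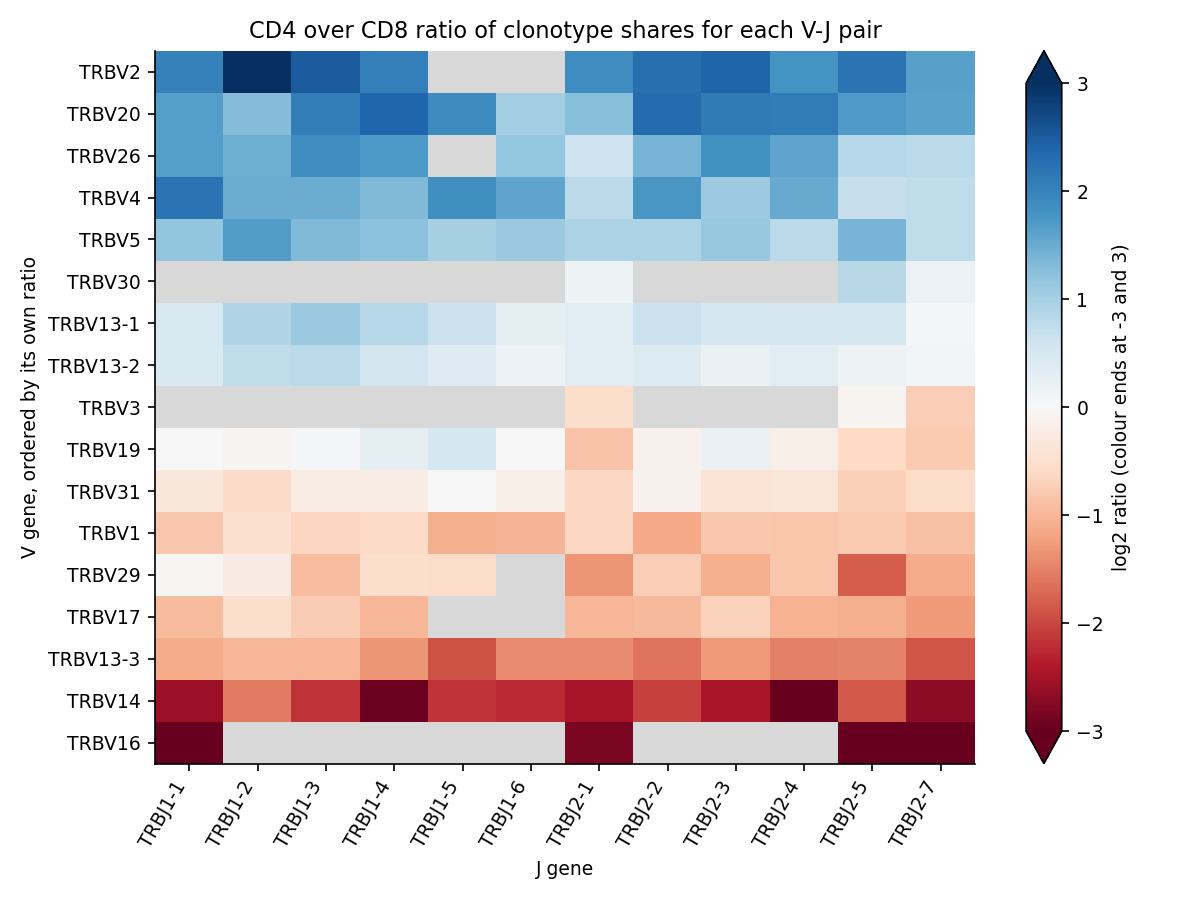
CD4 over CD8 ratio of clonotype shares (log2 colour scale, blue higher in CD4, red higher in CD8) for each V-J pair, with V genes ordered by their own ratio and grey for pairs with fewer than 100 clonotypes in both libraries together. The colours run in rows, from the TRBV2 pairs at ratios of 3.08 to 8.39 to the TRBV16 pairs at 0.0387 to 0.141, with the sign set by the V gene in these rows at each J gene drawn.

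CDR3 length was the same in both subsets at the level of means. It averaged 13.9 ± 1.49 residues in CD4 and 13.9 ± 1.52 in CD8 (SD over clonotypes), and the difference CD4 minus CD8 had an interval of -0.0179 to 0.0179 residues. Within V-J pairs the difference was -0.0052 (-0.0232 to 0.0128), and by reads it was 0.0563 (-0.0375 to 0.1501). Among clonotypes with at least 2 reads, CD4 T cells were longer by 0.0470 residues (0.0173 to 0.0766). The most frequent length was 14 residues, at 28.6% of CD4 and 28.9% of CD8 clonotypes.

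Equal means covered differences of shape and of V gene. Lengths of 12, 13 and 15 residues were slightly more frequent in CD4, at 10.7% against 10.1%, 20.6% against 19.9% and 23.0% against 21.9%. Lengths of 11 and 16 residues were slightly more frequent in CD8, at 3.83% in CD4 against 4.45% and 9.20% against 9.999%. By reads, the CD4/CD8 ratios at 13 and 16 residues crossed 1, to 0.893 (0.752 to 1.06) and 1.05 (0.840 to 1.31). Those at 11, 12 and 15 residues stayed on their side, at 0.776, 1.19 and 1.06. Within single V genes, 7 had longer and 7 had shorter CDR3s in CD4, by intervals free of 0. TRBV20 clonotypes averaged 13.2 residues in CD4 and 12.9 in CD8, a difference of 0.289 (0.220 to 0.358), whereas TRBV2 clonotypes averaged 14.5 and 14.8, a difference of -0.283 (-0.406 to -0.159).

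The number of bases between the shared V start and the shared J end, in which D bases, added bases and trimming show, was nearly the same in both subsets. It averaged 10.64 in CD4 and 10.56 in CD8, a crude difference of 0.0793 (0.0268 to 0.132). Within V-J pairs it was larger in CD4 by 0.304 bases (0.248 to 0.359), while the length of the CDR3 itself did not differ within pairs. CD4 CDR3s thus matched slightly fewer bases of the shared V starts and J ends at the same length. By reads, the crude difference was 0.264 bases (-0.0321 to 0.561).

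Net charge, counted as lysine and arginine minus aspartate and glutamate, was less negative in CD4 T cells. It averaged -0.696 ± 1.03 in CD4 and -0.847 ± 1.01 in CD8 (SD over clonotypes), a difference of 0.151 (0.139 to 0.164). By reads the means were -0.752 and -0.869, a difference of 0.117 (0.0615 to 0.173). Clonotypes with a net charge of 1 were 9.89% of CD4 and 7.46% of CD8 clonotypes, and those with -2 were 17.3% and 20.2%. The difference was small beside the spread of single clonotypes, and held in most of the repertoire.

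**Figure D4:**
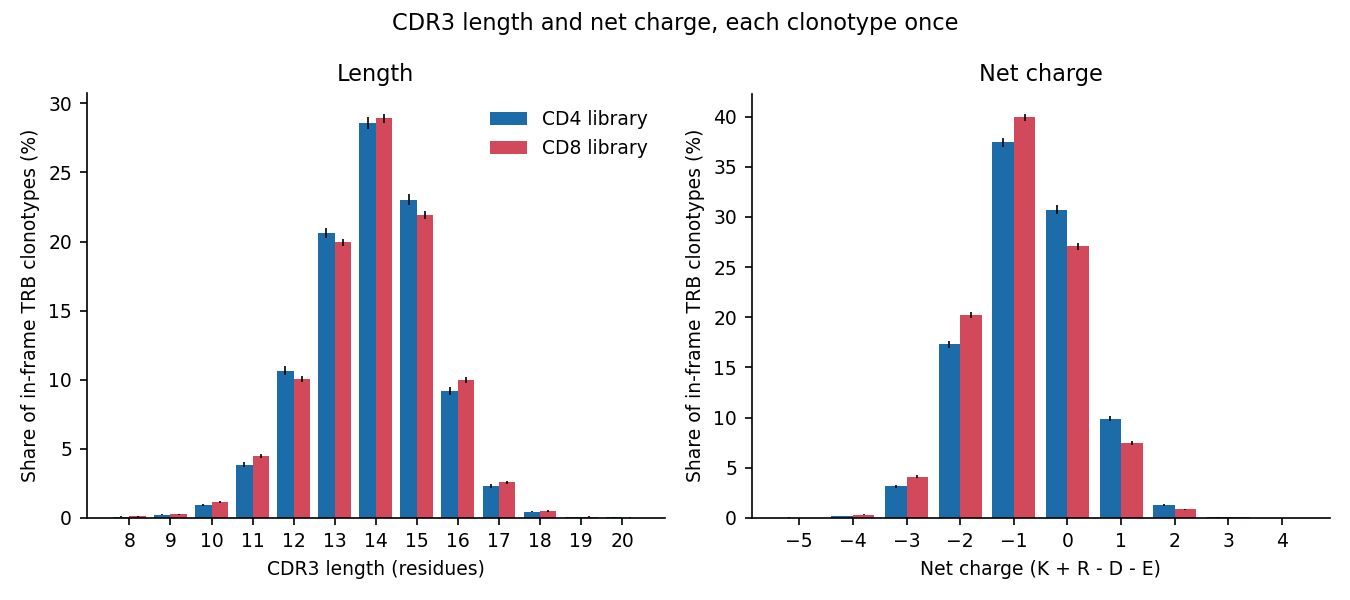
Share (%) of in-frame TRB clonotypes at each CDR3 length in residues (left) and each net charge (right) in the CD4 library (blue) and the CD8 library (red), each clonotype counted once, with 95% Wilson intervals. Both length distributions peak at 14 residues, while the charge distribution of CD4 T cells is shifted to the right, with 30.7% against 27.1% of clonotypes at a charge of 0.

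V and J genes encode charged residues of CDR3 themselves, so the charge was also compared with the genes fixed. Such residues lay in genes favoured in either subset. Shared starts that end in the first bases of an aspartate or glutamate codon included TRBV2, TRBV5 and TRBV20, at CD4/CD8 ratios of 4.26, 2.09 and 3.30. They also included TRBV13-3 and TRBV1, at 0.369 and 0.581. The shared starts of TRBV13-1 and TRBV13-2, at ratios of 1.39 and 1.245, hold a whole aspartate codon. An arginine codon lies in the shared starts of TRBV17, at a ratio of 0.505, and of TRBV20 and TRBV30, at 3.30 and 1.45. In TRBV20 and TRBV30 it encodes the fourth residue, shown as the codon in capitals in the shared start of each gene. TRBV1 encodes a second cysteine, also shown.
TRBV20 start: tgtggtgctAGGga
TRBV30 start: tgtagttctAGAg
TRBV1 start: tgcaccTGCagtgcaga

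The arginine was kept in 69.1% of CD4 and 68.2% of CD8 clonotypes of TRBV20. Among CDR3s of 14 residues, 11.6% in CD4 and 6.58% in CD8 had a positive residue at position 4, a ratio of 1.76 (1.64 to 1.89). An interior cysteine was found in 6.93% of CD4 and 11.7% of CD8 clonotypes, of which 95.7% and 98.0% used TRBV1, and its frequency differed by 0.0632 percentage points (-0.0127 to 0.139) within groups matched for V gene, J gene and length.

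With V gene, J gene and length fixed in this way over 1211 groups, the charge difference was 0.130 (0.119 to 0.141), close to the crude 0.151. In the central part of CDR3, without the first 4 and last 5 residues, the difference was 0.0707 (0.0608 to 0.0806) before and 0.113 (0.103 to 0.123) after the genes and length were fixed. Within groups, the number of positive residues in the central part differed by 0.0474 per CDR3 (0.0400 to 0.0549), CD4 minus CD8, and that of negative residues by -0.0659 (-0.0737 to -0.0580). By reads, without matching, the differences in the central part were 0.0489 (0.0086 to 0.0892) for net charge, 0.0332 (0.0011 to 0.0653) for positive residues and -0.0157 (-0.0560 to 0.0247) for negative residues, the last an interval that holds 0.

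The charge difference was seen in all 12 J genes and at each length from 11 to 17 residues, with intervals above 0 in every one. Among V genes it was less even. Of the 21, 19 were less negative in CD4 and 13 had an interval above 0, and none had an interval below 0. With J gene and length fixed, TRBV4 had the largest difference among the V genes compared over at least 20 groups, 0.279 (0.239 to 0.319), followed by TRBV30 with 0.221 (0.0837 to 0.357), TRBV31 with 0.196 (0.165 to 0.227) and TRBV13-2 with 0.179 (0.149 to 0.209). TRBV5 and TRBV1, both common, had differences of -0.0170 (-0.0535 to 0.0195) and 0.0063 (-0.0293 to 0.0419). Their intervals lay apart from those of TRBV4, TRBV31 and TRBV13-2.

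**Figure D5:**
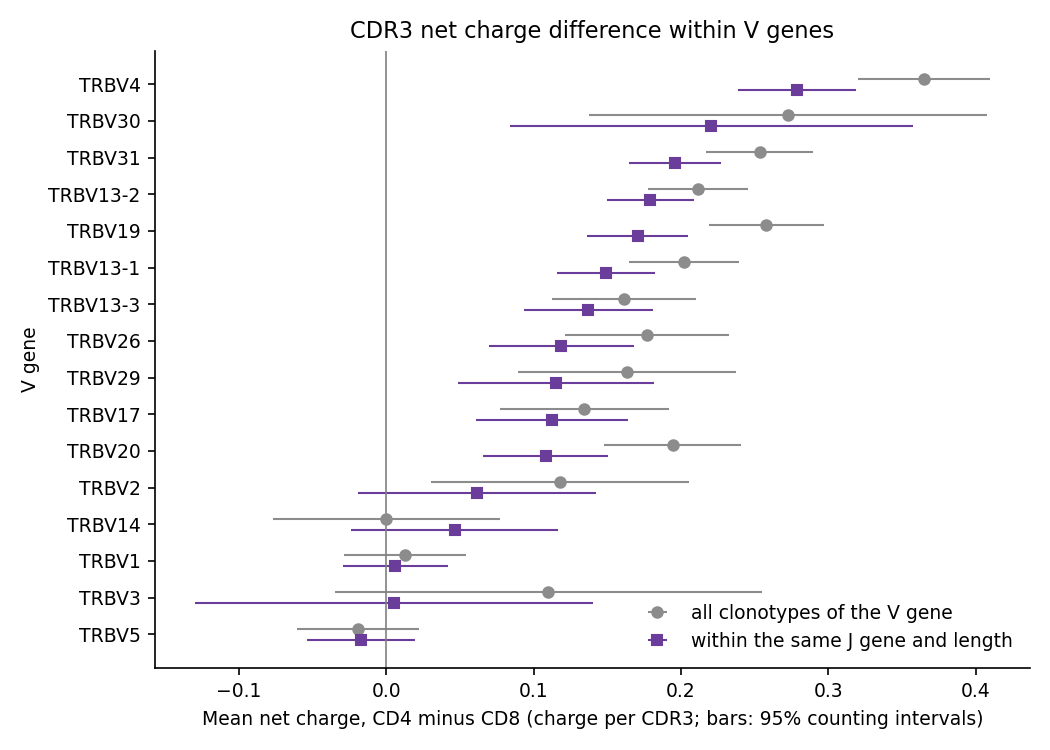
Mean CDR3 net charge in CD4 minus that in CD8 (charge per CDR3) for 16 V genes, over all clonotypes of the gene (grey) and within the same J gene and length (purple), with 95% counting intervals. With J gene and length fixed, 11 of the 16 intervals lie above 0, TRBV4 is highest at 0.279, and TRBV5 and TRBV1 lie at -0.0170 and 0.0063.

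Net charge is defined by aspartate, glutamate, arginine and lysine, so their counts restate it in parts. With V gene, J gene and length matched, each of them differed in the direction of the charge difference. Per 100 CDR3s matched for V gene, J gene and length, the central part differed, CD4 minus CD8, by -5.13 aspartates (-5.84 to -4.42) and -1.45 glutamates (-1.92 to -0.989). It differed by 4.01 arginines (3.29 to 4.72) and 0.737 lysines (0.494 to 0.979). Among uncharged residues, tryptophan was the most reduced in CD4, with a difference of -3.41 (-3.85 to -2.96). Glycine, alanine, glutamine and proline were more frequent in CD4, by 3.33, 2.43, 2.28 and 1.91. Without matching, tryptophan made up 2.52% of central residues in CD4 and 3.19% in CD8, a ratio of 0.790 (0.766 to 0.815). The unmatched ratio was 0.979 (0.949 to 1.01) for glutamate, 0.991 (0.974 to 1.01) for alanine and 1.003 (0.995 to 1.01) for glycine. These intervals hold 1. The unmatched ratios of aspartate, arginine, lysine, glutamine and proline stayed on the side of the matched differences.

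Aspartate and tryptophan lie side by side in 1 short motif, which was chosen after the residue counts were seen. TRBD2 read in one of its frames encodes aspartate, tryptophan and glycine in a row, as in the CD4 clonotypes of TRBV13-2 with TRBJ2-1 and of TRBV13-3 with TRBJ2-3 printed above. The 3 residues in a row were found in 4.92% of CD4 and 6.90% of CD8 clonotypes, a difference of -1.97 percentage points (-2.25 to -1.70). It was -2.07 (-2.37 to -1.77) with V gene, J gene and length fixed, and -1.83 (-2.12 to -1.54) with the listed D gene fixed as well. Among clonotypes with at least 2 reads it was -3.09 (-3.57 to -2.61), and by reads it was -1.34 (-3.58 to 0.901), an interval that holds 0. The other frames of the D genes differed less. Leucine before 2 glycines differed by -0.234 (-0.497 to 0.0289) and threonine before 2 glycines by 0.474 (0.161 to 0.786), with V gene, J gene and length fixed. Without the CDR3s that hold aspartate, tryptophan and glycine in a row, the crude charge difference was 0.135 (0.123 to 0.148).

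By position in CDR3s of 14 residues (11799 in CD4, 22345 in CD8), negative residues were less frequent in CD4 at positions 6 and 7, with ratios of 0.879 (0.834 to 0.927) and 0.745 (0.689 to 0.805). At position 11 negative residues were at 45.5% in CD4 and 49.5% in CD8, a ratio of 0.918 (0.896 to 0.940). At position 8 they did not differ beyond counting error, with 5.23% and 5.28%. At positions 5, 9 and 10 their intervals also held 1. Positive residues were more frequent at position 6, at 14.3% and 12.7%. They were also more frequent at positions 7, 9 and 11, with ratios of 1.10, 1.22 and 1.21. At positions 5, 8 and 10 the intervals of positive residues held 1. Hydrophobic residues (phenylalanine, isoleucine, leucine, methionine, valine, tryptophan or tyrosine) at position 6 or 7 were found in 24.95% of CD4 and 29.8% of CD8 clonotypes of at least 11 residues. That difference of -4.86 percentage points (-5.39 to -4.33) was -4.43 (-4.99 to -3.87) with V gene, J gene and length fixed, and -3.47 (-6.31 to -0.633) by reads.

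CD4 and CD8 T cells shared 3801 in-frame clonotypes that were identical in nucleotide CDR3, V and J gene. These were 9.20% of CD4 and 4.92% of CD8 clonotypes, held 27.6% and 18.7% of the reads, and 1871 of them were also in the DN library. Of all in-frame clonotypes, 3586 in CD4 (8.68%) and 7482 in CD8 (9.69%) were in the DN library. A further 746 nucleotide CDR3s were in both the CD4 and the CD8 library with a different V gene listed, and none with a different J gene. The shared clonotypes were more negative than either subset, with a mean charge of -0.955 ± 0.0167 (SE) against -0.670 ± 0.0053 and -0.842 ± 0.0037 in the remaining CD4 and CD8 clonotypes. They had 9.59 ± 0.0673 bases between the V start and J end, against 10.7 ± 0.0231 and 10.6 ± 0.0158. Without shared clonotypes, the CD4 minus CD8 charge difference was 0.172 (0.159 to 0.185), and without those also in DN it was 0.162 (0.1497 to 0.175). The origin of shared clonotypes, including sort impurity or exchange between libraries, was not tested.

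The same amino acid CDR3 with the same V and J gene was reached by more than 1 nucleotide sequence in 2048 of 38801 cases in CD4 (5.28%, 5.06 to 5.51) and 4824 of 70847 in CD8 (6.81%, 6.63 to 6.997). The CD8 library held more clonotypes, and the part of library size in this difference was not tested.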

How the data were processed

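T cell subsets were sorted from the spleen of 1 MRL.lpr mouse, and TCR libraries were made with the Takara SMARTer kit for mouse TCR α and β chains. The authors used MiXCR to turn reads into clonotypes, and its version, settings and reference build are not given in the sources used here. The deposited tables give each clonotype's count of reads, not normalized, and its fraction of the reads of the file. Counts were used as deposited, and the fraction was only checked against them. The CD4 file held 133667 TRB reads in 44807 clonotypes and the CD8 file 150874 in 81212.

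In-frame TRB clonotypes (no frameshift or stop codon) were compared by V gene, J gene, V-J pair, CDR3 length and net charge. Shares have 95% Wilson intervals, ratios of clonotype shares 95% Katz intervals, and ratios and means over reads linearised intervals with the clonotype as the unit. With 1 library per subset there was no test and no p-value, and a share ratio of at least 1.5-fold was counted as a difference. Differences within groups matched for V gene, J gene and length were weighted by the harmonic size of each group, with at least 2 clonotypes per library. Shared V starts and J ends were read from the clonotypes themselves, base by base while 0.65 of those matching so far agreed. Older V gene names are RefSeq synonyms (GRCm38.p6), found for all 21 V genes compared. V genes with at least 100 clonotypes in both libraries together, all J genes, the 5 highest and 5 lowest pairs with at least 100, the 3 largest clonotypes per library and the largest of the highest and lowest pair were named. The pairs named for their quotient, the short motifs and the residues by position were chosen after values were seen. The comparison, the gene groups and the measures were chosen with earlier results of these data known. Alternatives covered reads, a minimum of 2 reads, merging by amino acid sequence or 1 mismatch, shared clonotypes, equal depth (20 draws), reading frame, other thresholds, and removal of the 10 largest clonotypes. The filters on out-of-frame clonotypes, the removal of CDR3s listed with different V genes and the settings for the motif were added after seeing the data. Functions were tested on simulated data. Python 3.11.15, NumPy 2.4.6, pandas 2.3.3 and matplotlib 3.10.9 were used. TRA clonotypes and the DN repertoire as such were not compared.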

Additional observations from a re-analysis of the deposited data

Results flagged for a closer look

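TRA reads lie outside the comparison and were above the floor of 3 counts in both libraries, although the kit copies TCR α mRNA as well. The CD4 library had 101 TRA reads in 82 clonotypes, 0.0755% of its reads, and the CD8 library had 101 in 100 clonotypes, 0.0669%. They spread over 41 V and 30 J genes in CD4 and over 50 and 37 in CD8. The largest TRA clonotype had 15 reads in CD4 and 2 in CD8. No clonotype joined TRAV11 to TRAJ18, the pair of invariant natural killer T cells, in either library. At this depth, α chains could not be compared between the subsets.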

How the results depend on the processing

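The count of V genes past 1.5-fold was 12, and ran from 9 at a threshold of 2-fold to 15 at the looser of the thresholds tried. That of V-J pairs was 125, and ran from 85 to 148 at the same thresholds. At the looser one, 2 J genes passed, against 0. The length difference, which had an interval around 0, was 0.0470 residues with an interval above 0 among clonotypes with at least 2 reads. The charge difference kept its direction and an interval above 0 under the alternatives run, from 0.0489 in the central part by reads to 0.172 without shared clonotypes. V genes past 1.5-fold the same way out of frame numbered 7, and 2 with at least 2 reads. That minimum, chosen after seeing the data, turned the out-of-frame ratios of TRBV13-3, TRBV2 and TRBV29 to 1.39, 0.775 and 1.94, each with an interval that holds 1, and with out-of-frame and stop-containing clonotypes added to the in-frame ones the ratio of TRBV15 turned from 0.987 to 1.745, while TRBV12-1, at 0.793, was no longer past 1.5-fold, so that the count stayed at 12 with another gene in it. Of 354 single-gene values under alternatives, 340 stayed on their side of the 1.5-fold threshold, among them ratios within 1.5-fold that crossed 1, such as TRBJ1-3 by reads. The cause of these changes was not tested. No paired analysis was possible because each subset had 1 library, which also left no replicate to leave out. Depth limits rare genes most: TRBV12-1 rests on 14 CD4 clonotypes and TRBV16 with TRBJ2-7 on 3.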
